A study of Homo sapiens with 2 samples.

Results

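The genes described here encode the pyruvate dehydrogenase complex and the enzymes that switch it off and on: the kinases PDK1, PDK2, PDK3 and PDK4, the phosphatases PDP1 and PDP2, and the subunits PDHA1, PDHB, PDHX and DLAT. Members were all probe sets whose platform annotation gives exactly 1 of these 10 symbols. That found 24 probe sets of 9 genes, among 19775 genes with a singly annotated probe set. No probe set carries the symbol PDP2, so it has no expression value here and enters only the search of upstream sequence. The set was proposed with the ratios of these arrays in view, so its values are a description and no test is given.

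The samples came from HCC15, a human lung cancer line that the labels class as squamous, and were read on Affymetrix arrays with biotin labelling. The series asks which genes Wnt signalling controls in lung cancers with mutated CTNNB1. One culture received an siRNA against CTNNB1, which encodes beta-catenin, and the other a control siRNA whose target is not stated and whose sample title holds the word Tax. Both were grown in RPMI with 5% fetal bovine serum, and the protocol gives collection at 48 h after transfection. Each group is 1 array of 1 line, so no value has a replicate and no p-value could be computed.

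Pyruvate dehydrogenase sits in the mitochondrial matrix and turns pyruvate, the end product of glycolysis, into acetyl-CoA for the citrate cycle. The kinases phosphorylate the alpha subunit and shut the enzyme, and the phosphatases remove that phosphate and reopen it. PDK4 is known as the fasting-induced kinase of muscle and liver, PDK1 as a hypoxia-induced kinase in tumours, and PDK2 as the broadly expressed form. Wnt signalling has been linked to PDK1 in colon cancer cells, where the kinase holds pyruvate back from the mitochondria.

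Upstream sequence was read from RefSeq's promoter table (GRCh38.p14), which held all members except PDP1, 9 genes with 13 start sites. The 250 bases before each start were searched on both strands for the TCF/LEF core CTTTGA, the hypoxia response core ACGTG and the FOXO word GTAAACA. These windows are shown for PDK4 and for PDHA1 and PDHB, the alpha and beta subunits of the enzyme it regulates, each of which has 1 listed start; capitals mark matches to a searched word.
PDK4 (chr7:95596517-95596766, minus strand): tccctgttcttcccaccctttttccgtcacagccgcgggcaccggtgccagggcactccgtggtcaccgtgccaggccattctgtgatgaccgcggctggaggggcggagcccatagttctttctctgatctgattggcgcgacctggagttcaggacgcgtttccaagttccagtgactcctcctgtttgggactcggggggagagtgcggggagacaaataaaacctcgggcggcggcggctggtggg
PDHA1 (chrX:19343677-19343926, plus strand): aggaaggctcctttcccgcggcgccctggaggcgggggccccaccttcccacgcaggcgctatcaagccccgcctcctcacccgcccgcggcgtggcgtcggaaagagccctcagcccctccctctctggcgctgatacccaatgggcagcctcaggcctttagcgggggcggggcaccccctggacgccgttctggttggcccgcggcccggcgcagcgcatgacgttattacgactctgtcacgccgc
PDHB (chr3:58433833-58434082, minus strand): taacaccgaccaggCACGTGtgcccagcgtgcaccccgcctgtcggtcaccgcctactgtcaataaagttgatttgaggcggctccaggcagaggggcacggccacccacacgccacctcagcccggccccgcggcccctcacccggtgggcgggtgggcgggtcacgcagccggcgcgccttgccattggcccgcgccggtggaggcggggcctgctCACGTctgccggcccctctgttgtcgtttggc

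The PDK4 and PDHA1 windows held none of the 3 words. The PDHB window held ACGTG 235 bases before the start, where it overlaps its own reverse complement in CACGTG, and the reverse complement CACGT again 32 bases before the start. Over the 13 member starts, CTTTGA was found at 0 and GTAAACA at 0, against 11.2% and 2.98% of the 35116 windows of the same length in the table. ACGTG was found at 7 of the 13, against 18.5% of all windows. The member windows ranged from 35.6% to 79.6% GC, and the median over all windows was 58%. Only a PDK1 window (35.6%) and a PDK2 window (51.2%) were below that median, and the rest began at 62.0%. The part of GC content in these shares was not tested. The starts are not independent, since some genes have several and the PDHX windows overlap. A match describes letters only, and the arrays do not measure binding.

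CTNNB1 itself read 1224 with control siRNA and 339 with CTNNB1 siRNA in its probe set of highest signal, and its 3 probe sets had log2 ratios from -1.85 to -0.13. Their median, -0.97, was not past 2-fold. Signals are linear MAS5 intensities, and each pair below gives the control array first. A ratio is log2 of the CTNNB1 siRNA signal over the control signal, and a gene was called at 2-fold. Values under a floor of 13.8, the 25th percentile of all values, were set to it. A probe set passed the signal filter when its mean over the 2 arrays reached 49.1, the median of all values. A gene was represented by its passing probe set of highest mean signal, which gave 12531 genes with a median log2 ratio of 0.15. The only error that could be computed was the SD of log2 ratios between probe sets of the same gene, 0.42, or 0.29 for probe sets with a mean signal of at least 209. It covers no difference between cultures. All 4 epithelial markers passed the filter: KRT18 read 11116 and 12013, KRT8 8664 and 9259, EPCAM 1083 and 1417, and CDH1 939 and 594. Of 6 listed squamous markers, TP63 and KRT6A had no singly annotated probe set and were not read. Of the 4 with a probe set, only SOX2 passed the filter, at 60.1 and 41.6, and KRT5, KRT14 and DSG3 stayed under it. Of 3 lung adenocarcinoma markers, SFTPB (165 and 172) and NAPSA (56.2 and 65.6) passed and NKX2-1 did not. Summed signals were 128 and 95.6 for the 4 squamous markers read and 242 and 245 for the 3 of adenocarcinoma, so the sums cover unlike lists. No neuroendocrine marker of 3 passed. Of the fibroblast, leukocyte and endothelial markers, 2 of 3, 1 of 3 and 1 of 3 passed, with summed signals over each list between 134 and 189 with control siRNA and between 105 and 177 with CTNNB1 siRNA. The part of such differences in the member values was not tested.

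PDK4 was the only member past 2-fold. Its main probe set (225207_at) read 945 with control siRNA and 273 with CTNNB1 siRNA, which is 28.9% of the control, 3.46-fold lower and a log2 ratio of -1.79, or 4.23 times the probe set SD. Across all genes, 4.67% were at least 2-fold changed, 2.38% lower and 2.29% higher. Lower genes were 50.9% of these calls as deposited, 73.3% when ratios were centred on their median and 27.9% when the arrays were scaled to a common median. The count for the members was 1 of 9 genes, and nothing is read from it because PDK4 was chosen from this contrast. As deposited, 34 of the 12531 genes had a lower ratio. Counted from the lowest ratio, the place of PDK4 was 35 as deposited, 88 with the median over probe sets, 189 of 19775 genes with no filter, 20 after loess, 6 with the floor at the median and 5 of 7913 genes with the stricter filter.

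The dimmer passing PDK4 probe set (205960_at) read 99.4 and 50.2, a ratio of -0.99 that lies just inside 2-fold. The third (1562321_at) was under the floor on both arrays, at 10.4 and 1.6, and gives no ratio. Both passing probe sets therefore had the lower signal on the CTNNB1 siRNA array, and their ratios were 0.81 apart. Their median, -1.39, was also past 2-fold.

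**Figure D1:**
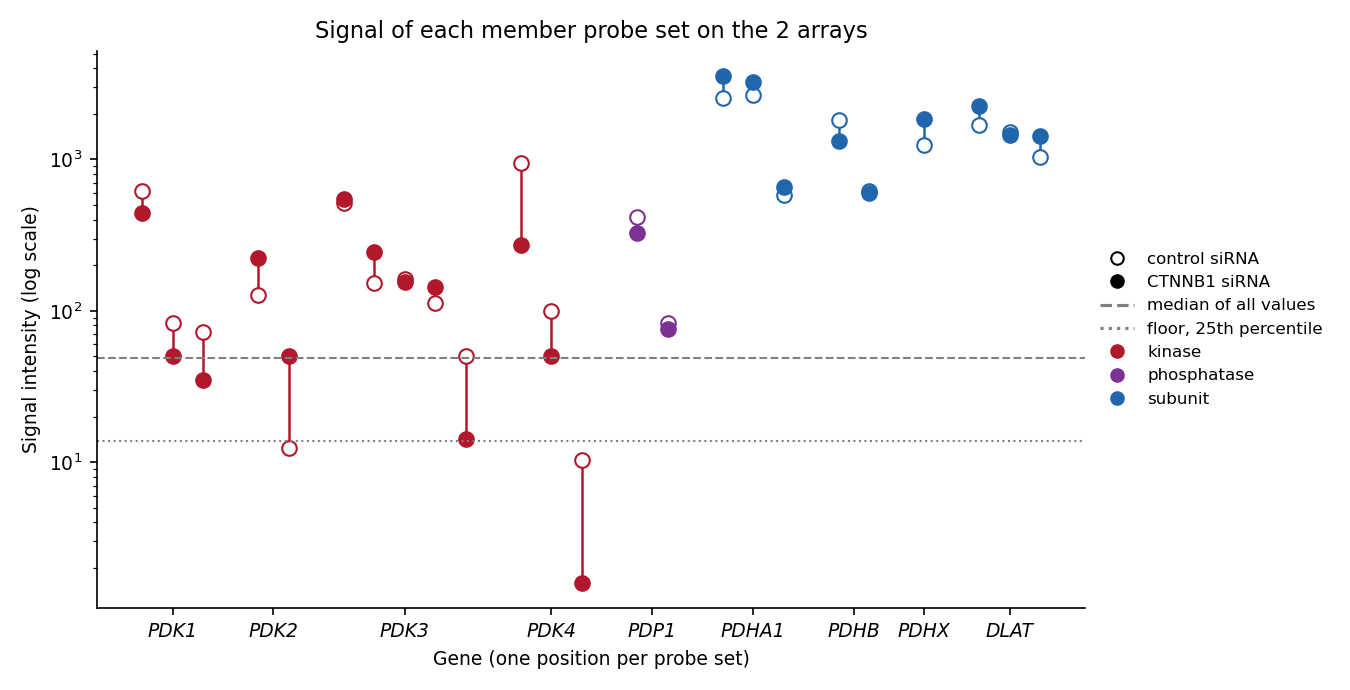
Signal intensity on a log axis for each of the 24 member probe sets, grouped by gene, with open circles for control siRNA, filled circles for CTNNB1 siRNA and a line joining the 2 arrays. The longest line above the median of all values (49.1, dashed) belongs to PDK4, from 945 to 273, and the lines of PDHA1, PDHB, PDHX and DLAT are short.

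PDK1, the kinase known from hypoxia, had the lower signal with CTNNB1 siRNA in all 3 of its probe sets. They read 623 and 441 (226452_at), 83.1 and 50.5 (206686_at), and 72.7 and 34.9 (239798_at). The ratios were -0.50, -0.72 and -1.06, so the dimmest was the largest and the only one past 2-fold. The probe set that represents the gene lay at 1.18 times the probe set SD and was not called. It was 70.8% of the control.

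PDK2 went the other way. Its single passing probe set (202590_s_at) read 128 and 222, 174% of the control and a ratio of 0.80, 1.88 times the probe set SD and short of 2-fold. A dim probe set under the filter (213724_s_at) read 12.3 and 50.1. Its control value is under the floor, so it was at least 3.63-fold higher, on a signal whose mean of 31.2 did not pass the filter. The 2 PDK2 probe sets had the same sign.

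PDK3, a kinase strongly activated by binding to the core of the complex, had no common direction. Its main probe set (228959_at) read 516 and 549, a ratio of 0.09. The others that passed read 152 and 246 (206348_s_at, 0.70), 163 and 156 (221957_at, -0.06) and 113 and 143 (206347_at, 0.34). The last, under the filter (230085_at), read 50.5 and 14.3, a ratio of -1.82. Probe sets of a gene can read different transcripts or different parts of the same one, and which transcript each PDK3 probe set reads was not examined.

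The 4 kinases had unlike ratios. PDK4 lay 2.59 below PDK2 on the log2 scale, 1.88 below PDK3 and 1.29 below PDK1. Set against the SD of a difference between 2 probe sets of the same gene, those gaps were 4.32, 3.14 and 2.16 times as large. The gap between PDK1 and PDK2 was 1.29, 2.16 times that SD. The probe sets of PDK1 and PDK4 overlapped, since -1.06 in PDK1 is lower than -0.99 in PDK4.

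PDP1, the calcium-stimulated phosphatase that reactivates the complex, read 419 and 326 (222572_at) and 83.5 and 75.6 (218273_s_at). The ratios were -0.36 and -0.14, both closer to 0 than the probe set SD. The ratio of PDK4 lay 1.43 below that of PDP1.

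**Figure D2:**
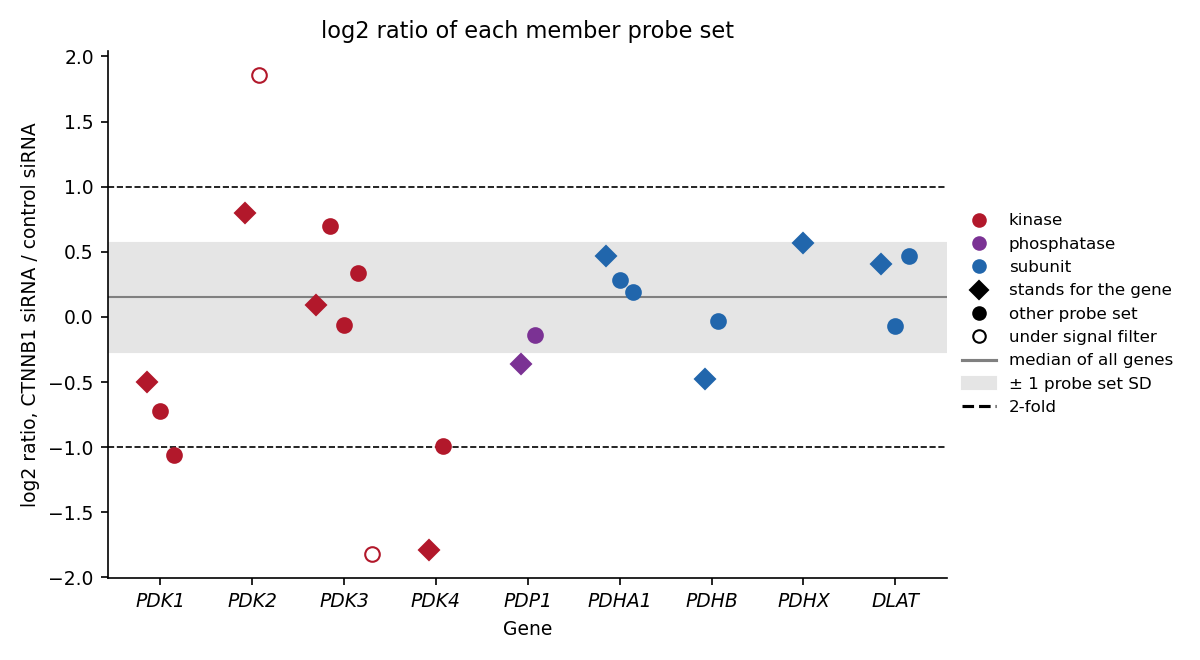
log2 ratio of CTNNB1 siRNA over control siRNA for the 23 member probe sets with a ratio, by gene; diamonds stand for the gene, open circles are under the signal filter, the grey band is the median of all genes (0.15) with 1 probe set SD (0.42) on each side, and dashed lines mark 2-fold. Among filled symbols, PDK4 at -1.79 and 1 PDK1 probe set at -1.06 lie beyond the lower line and none lies beyond the upper one.

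None of the 4 subunit genes passed 2-fold, and their ratios ran from -0.48 to 0.57 with a median of 0.44. PDHA1, the alpha subunit that carries the phosphorylation sites, read 2567 and 3558 (1555864_s_at), 2665 and 3245 (200980_s_at), and 578 and 658 (200979_at). Its ratios were 0.47, 0.28 and 0.19, all above 0. PDHB, the beta subunit that pairs with it, read 1833 and 1318 (211023_at) and 618 and 604 (208911_s_at), with ratios of -0.48 and -0.03. All 3 PDHA1 probe sets lay above both PDHB probe sets, by 0.22 at the nearest, which is less than the probe set SD. Between the probe sets that stand for the genes the gap was 0.95, or 1.58 times the SD of a difference.

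DLAT, the acetyltransferase that forms the core of the complex, read 1693 and 2249 (212568_s_at), 1525 and 1454 (213149_at) and 1032 and 1426 (211150_s_at). The ratios were 0.41, -0.07 and 0.47, so 1 of its 3 probe sets had the other sign. PDHX, which tethers dihydrolipoamide dehydrogenase to that core, has a single probe set (203067_at), with 1253 and 1865 and a ratio of 0.57. Across the 9 subunit probe sets, 6 had a ratio above 0 and none was past 2-fold. By gene, 3 of the 4 subunits were above 0, against 8024 of all 12531 genes, so most genes had that sign. Of all 21 member probe sets that passed the filter, 2 had a ratio of -1 or lower and 0 had a ratio of 1 or higher. Of all 27151 passing probe sets 5.9% were past 2-fold, 2.42% downward and 3.48% upward.

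Ratios on these arrays moved with signal. The median ratio was -0.15 in the dimmest decile of passing probe sets and 0.26 in the brightest, so each member was also set against probe sets of its own decile. The main PDK4 probe set lay 2.02 below its decile's median, and 0.0368% of that decile had a lower ratio, which is 1 probe set of 2715. The dimmer PDK4 probe set lay 0.88 below its decile, where 6.53% were lower. For PDK1 the 3 probe sets lay 0.73, 0.61 and 0.91 below, with 3.24%, 13.3% and 7% of the deciles lower. The main PDHB probe set lay 0.75 below its decile, with 1.88% lower, and that of PDP1 0.57 below, with 6.59% lower. The other probe sets of these genes lay nearer, 0.26 below for PDHB (22.6% lower) and 0.08 below for PDP1 (42.4% lower).

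Among members with ratios above 0, PDK2 was 0.68 above its decile, and 92.1% of that decile was lower. PDHX was 0.30 above with 84.2% lower, PDHA1 0.21 above with 82.3% lower and DLAT 0.15 above with 74.6% lower. The other PDHA1 probe sets differed from their deciles by 0.02 and -0.05. Of the other DLAT probe sets, 213149_at lay 0.35 below its decile, with 13.3% lower, and 211150_s_at 0.19 above. The main PDK3 probe set lay 0.14 below its decile, with 33.7% lower, and its other passing probe sets differed by -0.18 to 0.58. The deciles that hold the main probe sets of PDHA1, PDHX and DLAT themselves had medians of 0.26 to 0.28. Over all 9 genes the median ratio was 0.09 against 0.15 over all genes, and 5 of the 9 were under the latter.

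**Figure D3:**
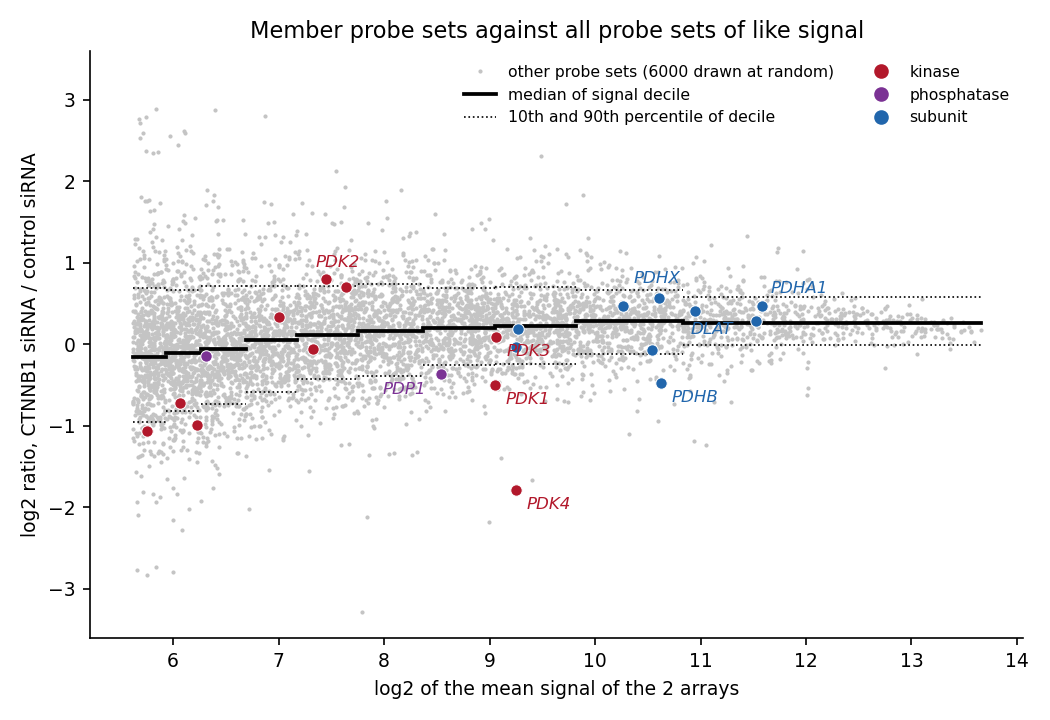
log2 ratio of CTNNB1 siRNA over control siRNA against log2 of the mean signal, for the 21 member probe sets that passed the filter (coloured, with the probe set that stands for each gene named) and a random share of the others (grey). Solid and dotted lines give the median and the 10th and 90th percentiles of each signal decile; PDK4 lies 2.02 below its decile's median and PDHB 0.75 below.

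The remaining genes of the complex and of lipoic acid attachment held no gene past 2-fold as deposited. Over all genes the share past 2-fold was 4.67%, so nothing is read from such counts in this or the other short lists. Of 6 listed genes 5 passed the filter, and the median ratio was 0.25. DLD, the dihydrolipoamide dehydrogenase shared with related complexes, read 2770 and 3292, although its passing probe sets ranged from -0.60 to 0.25. PDPR, the regulatory subunit of the phosphatase, read 808 and 965, and the lipoyltransferase gene LIPT1 read 187 and 251. Of 8 genes of the related oxoglutarate and branched-chain complexes, 7 passed and 0 were past 2-fold, with a median of 0.14. The brightest were DBT (782 and 1084), PPM1K, the phosphatase of the branched-chain complex (794 and 569), and DLST (410 and 694). Passing probe sets had both signs for DBT (-0.31 to 0.47) and PPM1K (-0.48 to 0.17).

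Genes that supply pyruvate or use it elsewhere passed the filter in 10 of 13 cases, with 0 past 2-fold and a median of 0.13. The lactate dehydrogenase genes LDHA and LDHB read 8703 and 10283, and 9157 and 9810, and malic enzyme ME1 read 4350 and 4180. Passing ME1 probe sets ran from -0.06 to 0.08. Outside the naming rule, and chosen after their values were seen, the carriers MPC1 and MPC2 that bring pyruvate into mitochondria had ratios of 0.53 and 0.16, pyruvate carboxylase PC of -0.60 and PCK2 of -0.84. PCK2, the mitochondrial enzyme that makes phosphoenolpyruvate, passed 2-fold lower after loess and after quantile normalization. Of 15 citrate cycle genes, 12 passed and 0 were past 2-fold, with a median of 0.22. MDH2 read 5786 and 7619, citrate synthase CS 3184 and 2567, and SDHD 2924 and 2346. Passing MDH2 probe sets ran from -0.14 to 0.4.

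Genes of fatty acid oxidation, some of which share PPAR control with PDK4 in muscle and liver, passed the filter in 10 of 15 cases, with 0 past 2-fold. All 10 ratios lay between 0.02 and 0.44, with a median of 0.15, equal to that of all genes. HADHB read 4166 and 5332, HADHA 3646 and 4332, and ACADM 2599 and 2924. CPT1A, which admits fatty acids to mitochondria, read 390 and 530, a ratio of 0.44. ANGPTL4, a PPAR target in many tissues, was under the filter at 34 and 31.8. Both were picked for mention with their values known. None of the 10 had a ratio below 0 as deposited in the probe set that stands for it, and 8024 of all 12531 genes were above 0. Other passing probe sets ran lower for PLIN2 (-0.63) and UCP2 (-0.36) and higher for CPT2 (0.36) and HADHA (up to 0.50). The median of the list was -0.03 after quantile normalization.

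Among factors known to regulate PDK genes, 10 of 13 passed, with a median ratio of 0.22. At 2-fold, 0 were called lower and 2 higher, where the shares over all genes were 2.38% and 2.29%. The called genes were RXRA, the partner of PPAR receptors (338 and 724, 2.14-fold), and EPAS1, which encodes hypoxia-inducible factor 2 alpha (973 and 2086, 2.14-fold). RXRA was past 2-fold in 5 of the 9 alternative settings and EPAS1 in 6. Both were under 2-fold after loess (0.89 and 0.83), quantile normalization and centring. The passing RXRA probe sets disagreed, from -0.15 to 1.10, with a median of 0.47. HIF1A read 2922 and 3421 and the glucocorticoid receptor gene NR3C1 1419 and 1923. PPARA, a receptor known to induce PDK4 and picked for mention with its value known, read 239 and 154, a ratio of -0.64. Its passing probe sets ranged from -0.64 to 0.18. The remaining passing factors were ESRRA (-0.1), FOXO1 (0.03), PPARD (0.14), FOXO3 (0.21) and ARNT (0.41). Their passing probe sets ran from 0.21 to 1.07 for FOXO3, -0.79 to -0.1 for ESRRA and -0.35 to 0.41 for ARNT. Of the 10 factors, 2 had a ratio below 0 and 8 above. PPARG, ESRRG and PPARGC1A were under the filter.

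Of 12 hypoxia targets, the class PDK1 belongs to, 11 passed and 0 were past 2-fold, with a median of 0.19. The peptide hormone gene ADM came closest, at 1779 and 3556, and it passed with scaling to a common median (1.14), as did LIAS, the lipoic acid synthase gene of the first list; neither passed in another setting tried, and both were picked for this. ENO1 read 10194 and 11735, PGK1 6250 and 7566, and BNIP3 2338 and 2997. The ratio of PDK1, -0.50, lay between those of SLC2A1 (-0.70), EGLN3 (-0.54) and HK2 (-0.22) at the low end of the list, all chosen after their values were seen. Passing probe sets of one gene differed in this list, some beyond 2-fold. They ran from -1.22 to -0.70 for SLC2A1 and from -1.03 to 0.33 for HK2. For PGK1 they ran from -0.76 to 0.33, for ENO1 from -0.14 to 0.39 and for EGLN1 from 0.44 to 1.30.

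**Figure D4:**
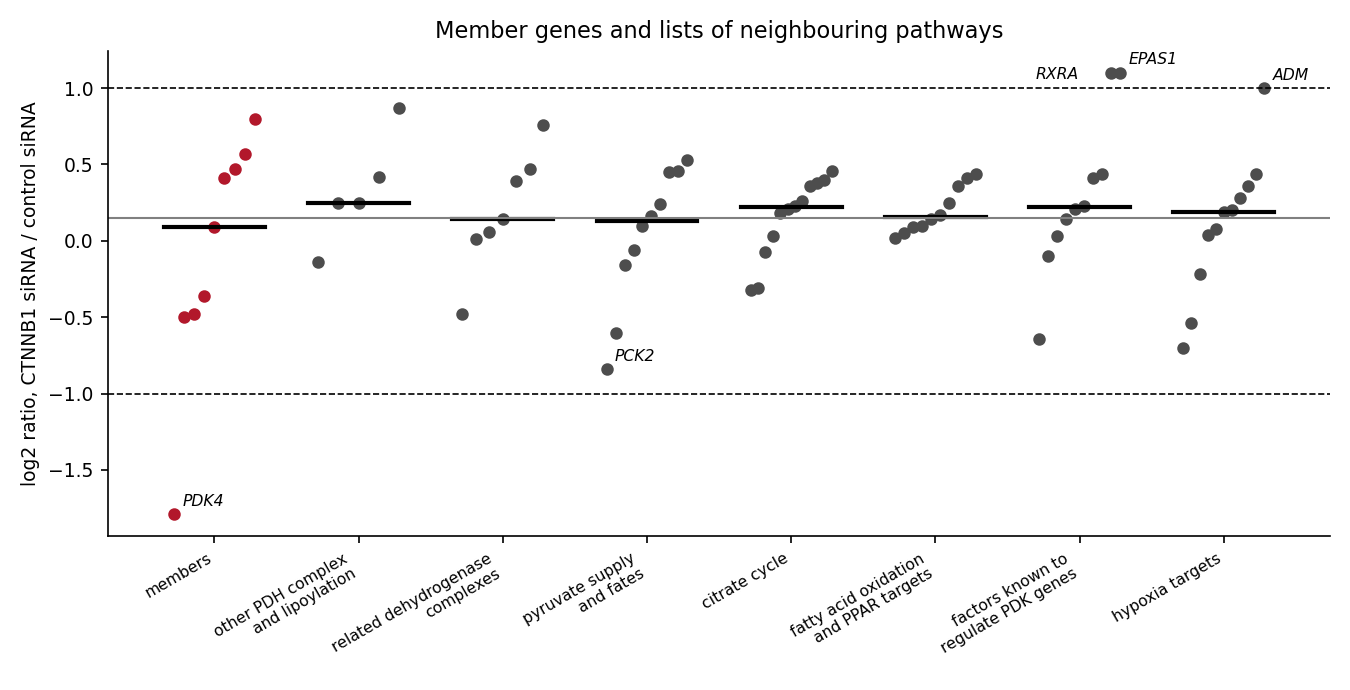
log2 ratio of CTNNB1 siRNA over control siRNA for each member gene (red) and each gene of 7 pathway lists (grey), sorted within a list, with black bars for medians, a grey line for the median of all genes (0.15) and dashed lines at 2-fold. PDK4 at -1.79 is the only point below the lower line, and RXRA and EPAS1 at 1.10 lie above the upper one.

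Of the 9 members, all but PDK3 kept their sign under every alternative tried. Over 9 alternative settings the ratio of PDK4 ran from -2.01 to -1.39 and was past 2-fold in each, and no other member was. The 2 floors and 2 filters left the ratio of each passing member as deposited. Centring and scaling to a common median each moved all members by a shared amount. Only quantile normalization, loess and the median over probe sets could move members against each other. PDK1 ran from -0.72 to -0.36, PDHB from -0.75 to -0.25 and PDP1 from -0.56 to -0.23. PDK2 ran from 0.65 to 0.93 over the 8 settings in which it passed, PDHX from 0.30 to 0.71, PDHA1 from 0.18 to 0.61 and DLAT from 0.13 to 0.55. PDK3 changed sign, from -0.13 to 0.22, and was below 0 in 3 settings.

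**Figure D5:**
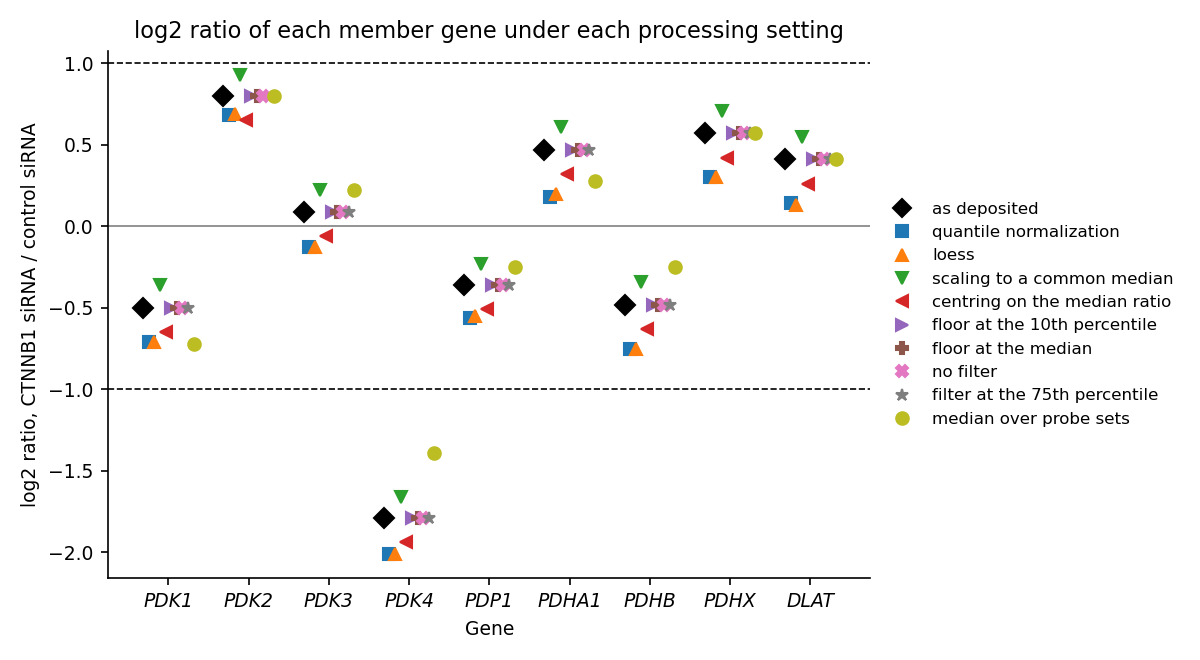
log2 ratio of CTNNB1 siRNA over control siRNA for each member gene as deposited (black diamond) and under 9 alternative settings, with dashed lines at 2-fold. PDK4 stays between -2.01 and -1.39, PDK3 crosses 0, and the other genes keep their sign.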

How the data were processed

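The deposited table gave 1 linear signal intensity per probe set and array, made by the authors with MAS5, per the submitters' processing notes. The sources used here do not give its version, target intensity, scaling or detection calls. The medians were 51.3 (control siRNA) and 46.7 (CTNNB1 siRNA) over 54675 probe sets. GEO's platform annotation gave 41097 probe sets 1 symbol and 1801 several, and 11777 were not listed. Symbols outside the members were updated by Entrez number through RefSeq gene names.

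Log2 ratios were computed from the deposited intensities without further normalization (Python 3.11.15, pandas 2.3.3), with the floor, filter, gene rule and 2-fold rule of the report. Calculations were tested on simulated arrays. The members, the 7 pathway lists, the marker lists and the naming rule (every member, and from each list the genes past 2-fold and the 3 brightest) were chosen with earlier results of these data known. Alternatives were quantile normalization, loess (statsmodels 0.14.6), scaling to a common median, centring, 2 floors, 2 filters and the median over probe sets. The number of arrays limits the precision.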

Additional observations from a re-analysis of the deposited data

How the results depend on the processing

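All 9 members with a value moved by less than the probe set SD of 0.42 in every alternative in which they passed, and the count of members past 2-fold was 1 in each of the 9. The floors and filters could not move a passing member, because the same probe set stood for it, with signals above each floor. The median of the members was 0.09 as deposited and ran from -0.14 (filter set to the 75th percentile, where PDK2 did not pass) to 0.22, below 0 in 4 alternatives. Counts over all genes depended on the setting. Against 298 lower and 287 higher as deposited, there were 448 and 163 with centring on the median ratio, 183 and 472 with scaling to a common median, 1275 and 722 with no filter, 34 and 139 with the filter set to the 75th percentile, and 160 lower with the floor at the median.  The median of all genes was 0.29 with that scaling and -0.02 after loess. No paired analysis was possible because each group has 1 array.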
